A study of Mus musculus with 10 samples.

Results

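The 37 interferon-stimulated genes described here are genes that cells switch on when they receive an interferon signal, and their levels were followed in the kidney cortex of 4-week-old mice by Drop-seq, a droplet method that reads the 3' ends of RNA from single cells. The genes were chosen by name from a list drawn up with measured values of these libraries known, among them the difference between the 2 day 14 libraries, and all 37 of 37 were found in every file, out of 28808 gene symbols. The series has 10 libraries: 1 of normal kidneys (the control), 1 each of injured kidneys on days 1, 2 and 4, and 2 each on days 7, 11 and 14, called a pair below (given in replicate order, not treated as paired samples). The labels give neither the kind of injury nor the strain, sex or number of animals behind a library, and nothing says whether 2 libraries of one day came from separate animals, so p-values measure only the spread between these libraries.

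Interferons are secreted proteins of host defence. Type I interferons bind the receptor IFNAR, whose kinases JAK1 and TYK2 act through a complex that holds STAT2 and IRF9 and binds a DNA element, the interferon-stimulated response element, upstream of many of the genes below. Interferon gamma acts through its own receptor and a second element, the gamma-activated site. Many products block steps of viral growth, and others, such as IRF7, STAT2 and IRF9, feed back into the pathway. The kidney tubule meets interferon signals in infection and in sterile injury.

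The regulatory stretches of 4 members are shown first, chosen among the 8 with the highest day 14 ratio after their sequences were seen: 3 with the element through which such genes are known to respond, and Oasl2 without it. Each line gives 250 bases upstream of the RefSeq start of the gene (build GRCm38.p6), 5' to 3' on the gene's strand, with capitals marking the response element core GAAA-NN-GAAA or its reverse complement TTTC-NN-TTTC (N is any base). The first is chr19:34640639-34640888 on the plus strand, the second chr19:34583279-34583528 (plus), the third chr5:120907526-120907775 (minus) and the fourth chr5:114896684-114896933 (plus).
Ifit1: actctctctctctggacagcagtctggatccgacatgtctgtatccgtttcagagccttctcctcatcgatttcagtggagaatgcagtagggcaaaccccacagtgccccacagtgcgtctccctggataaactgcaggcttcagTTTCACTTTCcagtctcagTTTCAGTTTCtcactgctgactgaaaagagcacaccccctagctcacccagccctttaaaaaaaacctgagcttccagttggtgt
Ifit3: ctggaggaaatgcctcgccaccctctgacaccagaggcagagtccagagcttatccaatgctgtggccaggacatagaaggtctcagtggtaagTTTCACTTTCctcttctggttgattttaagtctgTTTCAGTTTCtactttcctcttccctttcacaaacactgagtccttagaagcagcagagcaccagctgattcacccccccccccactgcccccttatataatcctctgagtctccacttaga
Oas1a: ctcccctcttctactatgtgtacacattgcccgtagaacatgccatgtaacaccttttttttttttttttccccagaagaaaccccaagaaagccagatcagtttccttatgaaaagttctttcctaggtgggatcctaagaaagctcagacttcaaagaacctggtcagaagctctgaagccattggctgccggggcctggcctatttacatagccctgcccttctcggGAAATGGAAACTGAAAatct
Oasl2: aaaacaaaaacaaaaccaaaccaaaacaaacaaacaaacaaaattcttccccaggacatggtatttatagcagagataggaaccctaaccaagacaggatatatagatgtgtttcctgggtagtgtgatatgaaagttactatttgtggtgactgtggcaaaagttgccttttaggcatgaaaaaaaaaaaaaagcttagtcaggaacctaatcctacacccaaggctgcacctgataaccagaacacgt

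In Ifit1 the 2 cores begin 104 and 85 bases upstream of the start, in Ifit3 156 and 122 bases upstream, and in Oas1a 20 and 14 bases upstream, where they overlap. The Oasl2 stretch holds no core. Ifit3 and its near copy I830012O16Rik (also named Ifit3b) share a stretch of 44 bases that spans both cores, at chr19:34583373-34583416 and chr19:34607769-34607812, both on the plus strand.
Ifit3 and I830012O16Rik: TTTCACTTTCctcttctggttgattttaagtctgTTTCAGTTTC
Both strands of 300 bases, 250 before to 50 after the start, were searched for the core and for the gamma-activated site TTCNNNGAA. RefSeq promoters were matched for 28 members. The core was found in 17 of them (60.7%) and in 3.99% of all 27025 gene symbols; the gamma-activated site was found in 6 (21.4%) and in 9.55%. The members without the core in this window were Cmpk2, Herc6, Ifi35, Ifi44, Ifit2, Irf7, Irf9, Lgals3bp, Oasl1, Oasl2 and Xaf1. A match is a description of letters and says nothing of binding.

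The libraries held 7091848 to 31632205 counts, read here as unique molecular identifiers (UMIs, 1 per captured RNA molecule), and 50376 cells were used, 3403 to 6631 per library. Cells were put into classes by raw UMIs of marker genes, none of them a member, and 38676 were tubular (1578 to 6039 per library); the proximal tubule, thick ascending limb, collecting duct principal and intercalated classes are segments within the tubular class. Levels are given in CPM, the UMIs of a gene divided by the summed UMIs of its class and library and scaled to a total of 1e+06; a molecule gives 1 UMI whatever its length, so the CPM of different genes are set side by side. The labelled tissue was borne out by a proximal tubule marker that the classes did not use: Miox, an enzyme of inositol breakdown, had a median of 2185 CPM in the proximal tubule class and 196 CPM in the endothelial class. The control and days 1, 2 and 4 have 1 library each; comparisons between 2 of these carry exact Poisson or conditional binomial 95% intervals of counting error only, and no test. Days 7 and 11 were tested against the control with the spread of the replicated days. The median mitochondrial share of tubular cells was 24.8% in the control, 4.39% and 6.13% in the day 7 pair, and 16.5% and 18.9% in the day 14 pair, and its part in the results was not tested. Pairs of libraries shared 0 to 4 cell barcodes. The make-up of the tubular class shifted with the day. Proximal tubule cells were 3610 of 5093 tubular cells in the control and 3137 of 4581 on day 4. They were 473 of 1578 and 732 of 2212 in the day 7 pair, and 3316 of 4243 and 3666 of 4422 in the day 11 pair. The part of this shift in the tubular levels was not tested.

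In tubular cells the 37 genes together were low in the control, far higher on day 2, and back near the control level on day 11. Their summed level was 113 CPM in the control, 723 CPM on day 1, 9783 CPM on day 2 and 2397 CPM on day 4. On day 7 it was 1639 and 1483 CPM (mean 1561 ± 110 SD, n = 2), on day 11 158 and 134 CPM (146 ± 17.0 SD, n = 2), and on day 14 152 and 517 CPM (334 ± 258 SD, n = 2). Day 2 was the highest of the 10 libraries, and the day 7 libraries did not overlap those of day 11, while the pair of day 14 lay far apart. Against the control, the sum was 6.38-fold higher on day 1 (95% counting interval 6.10 to 6.68), 86.3-fold higher on day 2 (83.3 to 89.5) and 21.2-fold higher on day 4.

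**Figure D1:**
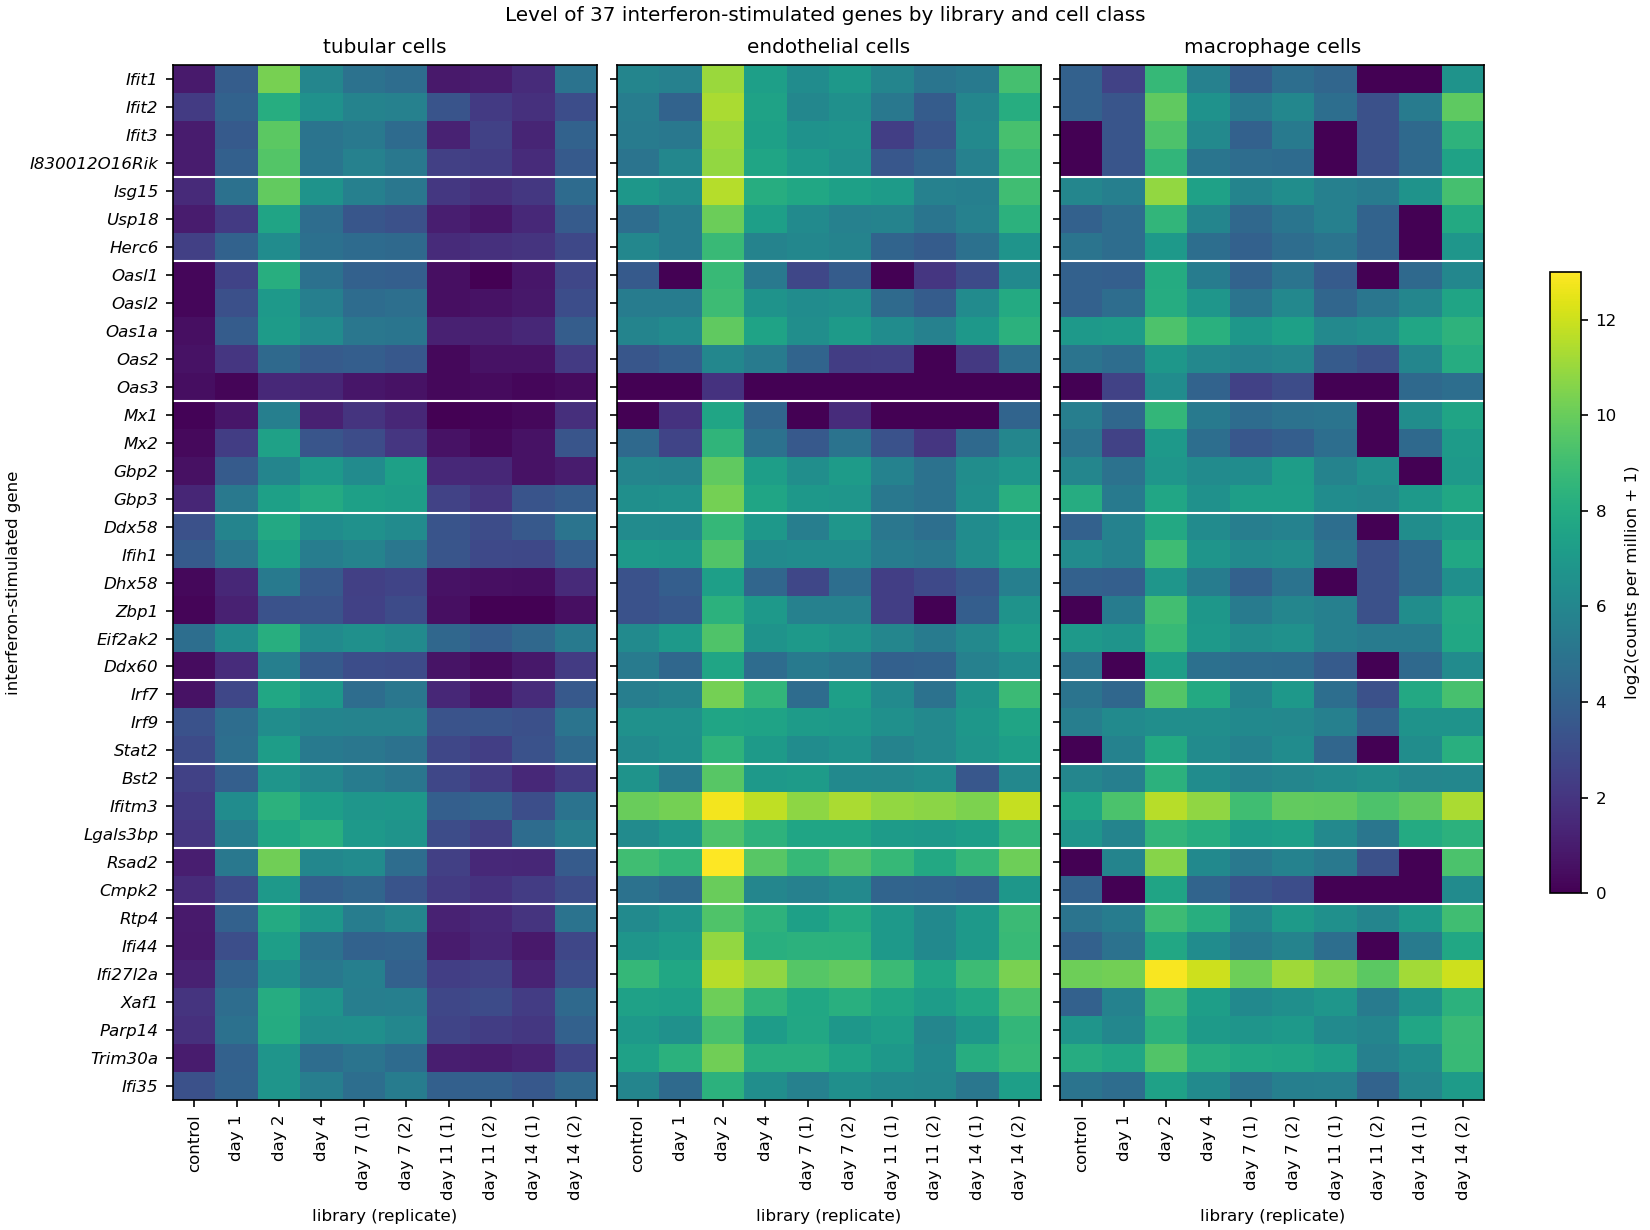
Level of each of the 37 genes (rows, grouped by role, white lines between groups) in each library (columns) in tubular, endothelial and macrophage cells, as log2(CPM + 1). The day 2 column is the brightest in most rows of each panel: 33 members in tubular, 37 in endothelial and 29 in macrophage cells had their highest level there. The share of all genes that were highest on day 2 was not counted.

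Most members took part on day 2. Among genes with at least 100 counts in the pair of libraries compared, 36 of 36 members were at least 2-fold higher in tubular cells on day 2 than in the control, against 17.5% of all such genes. The matching counts were 22 of 23 on day 1 (19.6% of all such genes) and 35 of 35 on day 4 (25.2%). Single members differed widely in size: on day 2 Oasl1 was 1526-fold above the control (95% counting interval 653 to 4703) and Oas3 4.81-fold (2.22 to 11.3). In the proximal tubule alone the counts were 10 of 10 on day 1 (26.1% of genes), 34 of 34 on day 2 (22.4%) and 34 of 34 on day 4 (33.9%). A member with few counts in the control could reach the minimum only through the injured library. Its outcome was then fixed in advance, so these counts are a description and carry no weight as a test.

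The IFIT family, whose proteins bind foreign RNA and block its translation, made up the largest part of the day 2 sum. Its 4 members together stood at 6.72 CPM in the control and 3131 CPM on day 2 in tubular cells. Ifit1 was at 0.944 CPM in the control, 13.4 on day 1, 1298 on day 2, 61.4 on day 4, 28.5 and 23.7 in the day 7 pair, 0.848 and 0.972 in the day 11 pair, and 2.07 and 30.4 in the day 14 pair. Day 2 was far above every other library, and the second day 14 library was level with those of day 7. Ifit3 was at 0.981 CPM in the control, 11.6 on day 1, 831 on day 2, 31.0 on day 4, 37.3 and 22.2 in the day 7 pair, 1.38 and 4.64 in the day 11 pair, and 1.57 and 15.7 in the day 14 pair. I830012O16Rik was at 1.02 CPM in the control, 15.0 on day 1, 725 on day 2, 32.4 on day 4, 50.9 and 36.0 in the day 7 pair, 4.45 and 4.10 in the day 11 pair, and 2.02 and 11.9 in the day 14 pair. These 2 genes are near-identical copies that share the promoter stretch shown above, and reads from one may have been counted for the other, so their separate values are uncertain. The fourth member, Ifit2, had 278 CPM on day 2, 73.6-fold above the control (60.4 to 90.7), and a higher control level (3.77 CPM).

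Isg15 encodes a ubiquitin-like protein that is attached to other proteins, Herc6 is a ligase of the same system and Usp18 removes the tag and restrains the receptor. Isg15 was at 1.96 CPM in the control, 28.2 on day 1, 952 on day 2, 102.1 on day 4, 49.4 and 34.9 in the day 7 pair, 3.29 and 2.38 in the day 11 pair, and 3.28 and 22.5 in the day 14 pair. Its course followed that of Ifit1, with both day 7 libraries above both of day 11, an order found in 68.9% of all genes with at least 100 counts. Usp18 had 189 CPM and Herc6 79.9 CPM on day 2, from 1.02 and 4.53 CPM in the control.

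Rsad2 encodes viperin, an enzyme that makes a chain-ending nucleotide, and Cmpk2, its neighbour, a nucleotide kinase. Rsad2 was at 1.13 CPM in the control, 35.6 on day 1, 1180 on day 2, 63.0 on day 4, 76.0 and 24.2 in the day 7 pair, 4.45 and 1.84 in the day 11 pair, and 1.77 and 12.3 in the day 14 pair. It was the second most abundant member in tubular cells on day 2, and its 2 day 7 libraries differed more from each other than those of Ifit1 or Isg15 did. Cmpk2 was at 2.0 CPM in the control and 131 CPM on day 2.

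The OAS family makes the second messenger that activates RNase L, except for Oasl1, which lacks that activity. Oasl1 was at 0.189 CPM in the control, 5.23 on day 1, 288 on day 2, 27.8 on day 4, 15.7 and 14.3 in the day 7 pair, 0.424 and 0 in the day 11 pair, and 0.707 and 5.91 in the day 14 pair. Oasl2 was at 0.189 CPM in the control, 8.13 on day 1, 132 on day 2, 47.3 on day 4, 23.1 and 25.6 in the day 7 pair, 0.424 and 0.540 in the day 11 pair, and 0.757 and 7.27 in the day 14 pair. Oas1a was at 0.453 CPM in the control, 12.6 on day 1, 140 on day 2, 75.7 on day 4, 34.9 and 32.1 in the day 7 pair, 1.27 and 1.19 in the day 11 pair, and 1.77 and 13.4 in the day 14 pair. In these 3 genes the 2 libraries of each of days 7 and 11 lay close together. Both day 7 libraries lay above both of day 11, as in 68.9% of all genes with at least 100 counts. Oas1a has a near copy, Oas1g, so its counts are uncertain in the same way. Oas3 was at or under 1.82 CPM in tubular cells of every library, with 10 counts in the control and 24 on day 2.

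In tubular cells the GTPases of the Mx family were highest on day 2, and those of the guanylate-binding family later. Mx1 was at 0.0755 CPM in the control, 0.726 on day 1, 48.7 on day 2, 1.27 on day 4, 2.85 and 1.68 in the day 7 pair, 0 and 0.108 in the day 11 pair, and 0.202 and 2.37 in the day 14 pair. Mx2 was at 0.264 CPM in the control, 4.07 on day 1, 171 on day 2, 9.64 on day 4, 7.13 and 3.18 in the day 7 pair, 0.530 and 0.216 in the day 11 pair, and 0.555 and 9.80 in the day 14 pair. In tubular cells both Mx genes, which encode proteins that trap viral nucleocapsids, were thus high on day 2 and already low on day 4. Gbp2 was at 0.491 CPM in the control, 12.3 on day 1, 59.9 on day 2, 126 on day 4, 77.5 and 168 in the day 7 pair, 1.80 and 1.73 in the day 11 pair, and 0.555 and 0.958 in the day 14 pair. Gbp3 was at 1.62 CPM in the control, 37.7 on day 1, 168 on day 2, 248 on day 4, 164 and 148 in the day 7 pair, 4.88 and 3.02 in the day 11 pair, and 9.54 and 12.6 in the day 14 pair. These 2 guanylate-binding proteins, which attack membranes around microbes, had their highest tubular libraries on day 7 and day 4, and they were the members with the smallest day 14 contrast. Within the proximal tubule alone the highest library of Gbp3 was also on day 7, at 330 CPM against 313 CPM on day 4. The day 4 level divided by the day 2 level was 0.0261 for Mx1 (the lowest of the 37), 0.337 for the median member and 2.11 for Gbp2 (the highest; 95% counting interval 1.94 to 2.29).

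Among membrane and secreted proteins, Ifitm3, which blocks virus entry from endosomes, had the most counts of the 37 over all libraries. In tubular cells it was at 3.70 CPM in the control, 80.0 on day 1, 331 on day 2, 155 on day 4, 114 and 116 in the day 7 pair, 14.2 and 16.4 in the day 11 pair, and 7.72 and 29.5 in the day 14 pair. Lgals3bp, a secreted glycoprotein, was at 3.10 CPM in the control, 44.7 on day 1, 212 on day 2, 297 on day 4, 124 and 104 in the day 7 pair, 7.10 and 4.54 in the day 11 pair, and 23.2 and 46.1 in the day 14 pair. Ifitm3 was above the control in both day 11 libraries, and Lgals3bp was highest on day 4. Bst2, which tethers budding virus to the cell, went from 4.79 CPM in the control to 108 CPM on day 2.

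The 6 RNA and DNA sensors and kinases had the highest control level of the role groups in tubular cells (46.1 CPM summed) and reached 775 CPM there on day 2. Most of the control sum came from Eif2ak2, the kinase that stops translation on double-stranded RNA, with 24.8 CPM, and from Ifih1 and Ddx58, which detect viral RNA, with 12.04 and 8.49 CPM. Zbp1, a sensor of Z-form nucleic acids, was scarce in tubular cells, at 0.151 CPM in the control, 1.31 on day 1, 8.55 on day 2, 9.17 on day 4, 4.75 and 6.73 in the day 7 pair, 0.424 and 0 in the day 11 pair, and 0 and 0.451 in the day 14 pair. Of the transcription factors, Irf7 showed the widest rise, from 0.528 CPM in the control to 213 CPM on day 2. Irf9 rose less, from 8.79 CPM in the control to 82.5 CPM on day 2.

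Among the other members, Rtp4, named for its role in receptor transport, was at 0.944 CPM in the control, 15.4 on day 1, 244 on day 2, 116 on day 4, 44.7 and 62.6 in the day 7 pair, 1.38 and 1.84 in the day 11 pair, and 2.88 and 30.02 in the day 14 pair. Ifi27l2a was at 1.28 CPM in the control, 16.1 on day 1, 85.0 on day 2, 35.6 on day 4, 47.5 and 15.3 in the day 7 pair, 4.35 and 4.97 in the day 11 pair, and 1.41 and 7.27 in the day 14 pair. Ifi44 was at 0.868 CPM in the control, 7.69 on day 1, 157 on day 2, 28.2 on day 4, 16.2 and 17.6 in the day 7 pair, 0.954 and 1.62 in the day 11 pair, and 0.858 and 5.75 in the day 14 pair. In tubular cells all 3 were highest on day 2. In all 3 both day 7 libraries exceeded both of day 11, as in 68.9% of all genes with at least 100 counts. Ifi27l2a was far more abundant in macrophage cells (7420 CPM on day 2). Macrophage markers in tubular cells stood at 323 and 132 CPM in the day 7 pair, the same order as its tubular levels. How much of its tubular level is stray RNA was not tested. The remaining members of this group, Xaf1, Parp14, Trim30a and Ifi35, had 264, 250, 110 and 108 CPM on day 2.

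Cell classes differed in their starting level more than in their day 2 level. In the control the summed level was 4118 CPM in endothelial, 3030 CPM in macrophage, 1478 CPM in T and NK and 1119 CPM in stromal cells, against 67.3 CPM in the proximal tubule, 140 CPM in the thick ascending limb, 211 CPM in intercalated and 335 CPM in collecting duct principal cells. On day 2 it was 48870 CPM in endothelial, 25390 CPM in macrophage, 25840 CPM in stromal, 14300 CPM in thick ascending limb, 12870 CPM in collecting duct principal, 12380 CPM in intercalated and 8516 CPM in proximal tubule cells. The endothelial level was 36.3 times the tubular level in the control and 4.996 times on day 2. On day 11 it was again 29.7 and 25.5 times, and on day 14 31.1 and 28.5 times. The control held 47 macrophage-class and 308 endothelial cells, and some stromal and T and NK classes held under 30 cells in a library, so those sums rest on few cells.

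**Figure D2:**
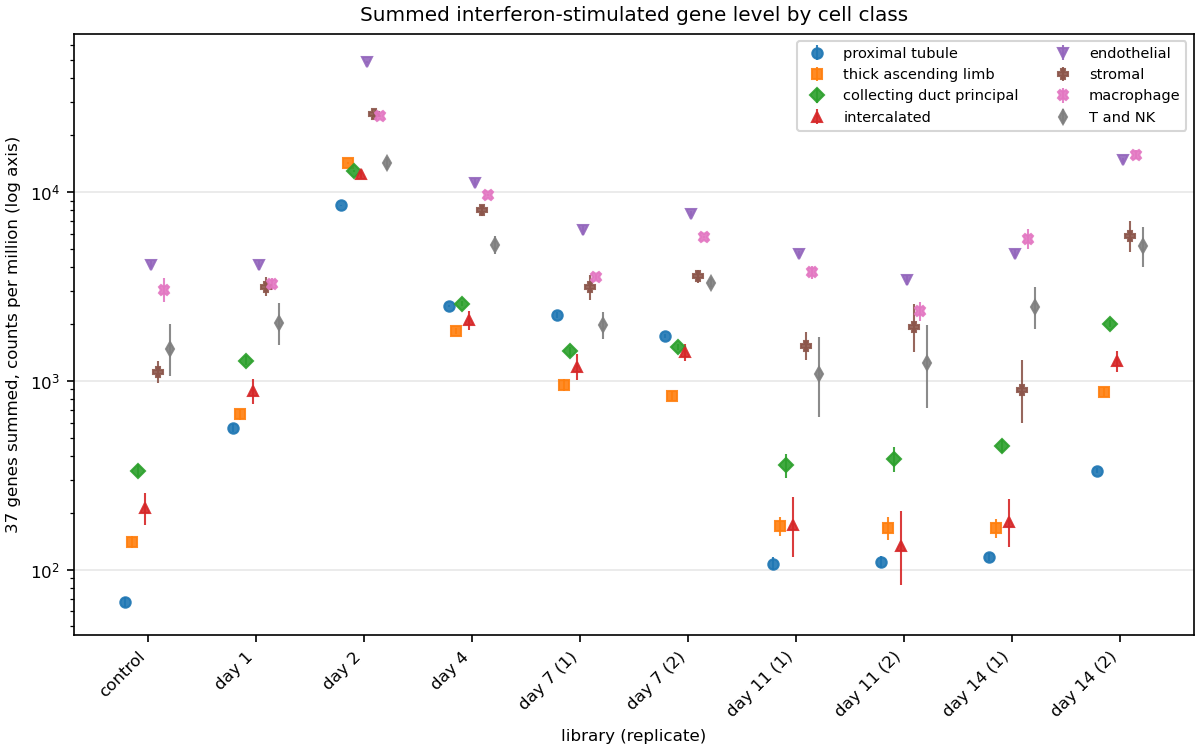
Summed CPM of the 37 genes (log axis) in 8 cell classes for each of the 10 libraries, with exact 95% Poisson intervals as bars. Every class peaks on day 2, and in the second day 14 library every class lies above the first.

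Day 1 set the classes apart. Tubular cells were already 6.38-fold and proximal tubule cells 8.39-fold above their control, whereas endothelial cells were at 0.992 times theirs (95% counting interval 0.930 to 1.06) and macrophage cells at 1.08 times (0.917 to 1.27). With a minimum of 30 counts in the pair, 1 of 29 members was at least 2-fold higher in endothelial cells on day 1 and 4 were at least 2-fold lower (6.24% of all such genes were higher and 4.32% lower), and 1 of 5 was higher in macrophage cells (26.6%). On day 2, 36 of 36 were higher in endothelial cells (10%) and 34 of 37 in macrophage cells (28.3%). On day 4 the counts were 19 of 30 in endothelial (8.94%) and 19 of 35 in macrophage cells (28.2%). Here too a member with few control counts could reach the minimum only through the injured library, which fixed its outcome in advance. Whether the day 1 values differ between classes beyond the spread of libraries was not tested, since day 1 and the control have 1 library each.

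In endothelial cells the most abundant member was Rsad2 on day 2, at 8249 CPM from 515 CPM in the control, followed by Ifitm3 at 7055 CPM from 1062 CPM. The largest endothelial ratio over a control with counts on day 2 was that of I830012O16Rik, 60.4-fold, and the smallest of those with a ratio was that of Irf9, 2.09-fold (95% counting interval 1.52 to 2.91). In macrophage cells Ifi27l2a led, at 7420 CPM on day 2 from 1113 CPM in the control, with Ifitm3 at 3134 CPM from 201 CPM. The leading genes thus differed by class: Ifit1 in tubular, Rsad2 in endothelial and Ifi27l2a in macrophage cells.

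On day 2 nearly all tubular cells held UMIs of the 37 genes. Cells were thinned to 1000 UMIs so that depth was equal, and shallower cells (213 to 830 per library) were left out. At least 1 UMI of the 37 genes was then seen in 9.65% of tubular cells in the control (exact binomial 95% interval 8.84 to 10.5%), 43.6% on day 1, 98.6% on day 2, 81.0% on day 4, 70.6% and 61.8% in the day 7 pair, 12.4% and 10.3% in the day 11 pair, and 13.3% and 30.9% in the day 14 pair. At least 3 UMIs were seen in 0.102% in the control, 90.3% on day 2, and 0.489% and 5.06% in the day 14 pair. Without thinning the shares with at least 1 UMI were 28.4% in the control, 99.8% on day 2, and 28.9% and 50.6% in the day 14 pair. No class is known to lack these genes, so the share that stray RNA gives in each library was not measured, and the control share is no background for day 2. On day 2 the 14 endothelial markers summed to 71.4 CPM in tubular and 9737 CPM in endothelial cells, and the 37 genes to 9783 and 48870 CPM. In endothelial cells the share with at least 1 UMI was 89.5% in the control and 100% on day 2.

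**Figure D3:**
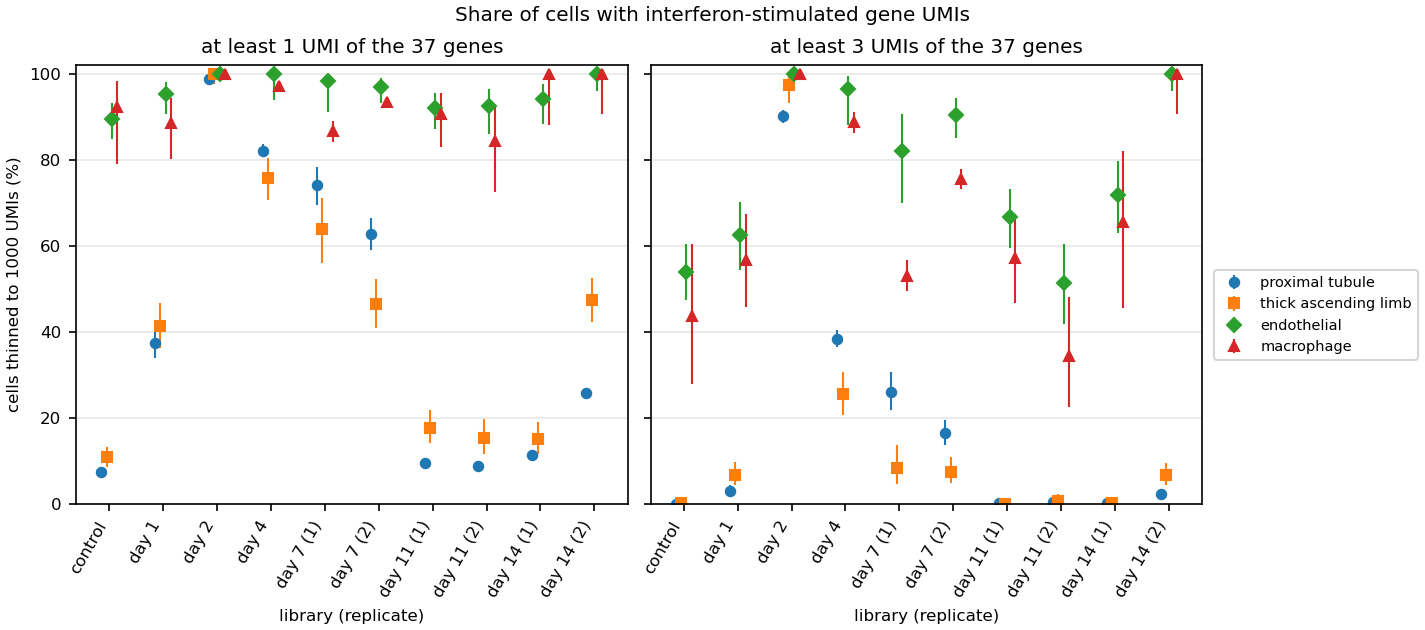
Share of cells thinned to 1000 UMIs with at least 1 (left) and at least 3 (right) UMIs of the 37 genes, in 4 classes and 10 libraries, with exact 95% binomial intervals. Proximal tubule and thick ascending limb cells are low in the control and on day 11 and near 100% on day 2 in the left panel, whereas endothelial and macrophage cells are high throughout.

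Days 7 and 11 have 2 libraries each and were tested in 1 fit over all 10 libraries. In it the single-library control borrows the spread of the replicated days. That spread takes in the day 14 pair, so members that differ widely there were tested on days 7 and 11 against a larger spread. The members were listed with measured values of these libraries known. The share of members passing is therefore a description and no support for the list. In tubular cells 31 of 37 members rose on day 7 against the control and 0 fell (edgeR's quasi-likelihood test, Benjamini-Hochberg adjusted p under 0.05 over all 16192 genes tested). Over all genes 16.4% rose and 17.9% fell, and the median log2 change was 3.75 over the members and 0.04 over all genes. The largest changes were those of Gbp2 (log2 7.19, SE 0.61; adjusted p = 1.33e-05 by edgeR), Oasl2 (6.19, SE 1.15; 0.00183) and Gbp3 (5.80, SE 0.34; 3.88e-06). Oasl1 (5.47, SE 1.13; adjusted p = 0.00349 by edgeR), Oas1a (5.41, SE 1.03; 0.00219) and Rtp4 (5.06, SE 1.15; 0.00604) followed. The 6 that did not pass were Oas3 (log2 -0.07), Eif2ak2 (0.95), Ifih1 (1.09), Usp18 (2.38), Mx2 (3.32) and Mx1 (3.89), and the last 3 had adjusted p = 0.0604, 0.115 and 0.0537 by edgeR. These last 3 differed widely in the day 14 pair, so not passing does not show an unchanged level on day 7. With the cells that Scrublet had marked as doublets kept, Gbp2 changed by 5.57, and in the proximal tubule alone, where the control held 0 counts of Oas1a, that gene changed by 10.53; a fitted value against 0 counts is no bound.

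On day 11 few members passed the test against the control. In tubular cells 2 of 37 were higher, Gbp3 (log2 1.28, SE 0.34; adjusted p = 0.0272 by edgeR) and Ifitm3 (2.05, SE 0.62; 0.0418), and 0 were lower. Among all genes 9.23% were higher and 9.13% lower. At an unadjusted p under 0.05 there were 5, of which Herc6 was lower (log2 -1.002). The median log2 difference was 0.57 over the members and 0.11 over all genes, and 12 members had a value of at least 1, among them I830012O16Rik (2.07; adjusted p = 0.122 by edgeR), which did not pass. With no filter on low counts 10 passed, and 11 with only the 2 groups in the fit. The shares of all genes above belong to the main fit. Those under the other settings, and the share with a value of at least 1, were not counted. The Ifitm3 call was lost without any 1 library of days 7 or 11 (adjusted p = 0.0539 to 0.147 by edgeR), at a mitochondrial limit of 25% (0.0623) and by DESeq2 (0.0917). The count of 2 ranged from 0 to 5 when 1 library was left out (0 without the first day 11 library, 1 without the second, and 5 without either day 14 library).

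From day 7 to day 11, 34 of 37 members fell in tubular cells and 0 rose; 20.9% of all genes fell and 23.0% rose. The largest falls were in Gbp2 (log2 -5.36, SE 0.42; adjusted p = 5.51e-06 by edgeR), Oasl1 (-5.29, SE 1.06; 0.00225), Oasl2 (-4.87, SE 0.90; 0.00135) and Gbp3 (-4.52, SE 0.25; 1.77e-06). Mx1 (-4.33, SE 1.60; adjusted p = 0.0474 by edgeR) and Rtp4 (-4.29, SE 0.91; 0.00302) came next. The Mx1 call was lost without any 1 library of days 7 or 11 (adjusted p = 0.091 to 0.202 by edgeR), with doublets kept and in the proximal tubule alone, and that of Rtp4 held in all 17 alternatives. The 3 that did not pass were Mx2 (-2.83), Ifi35 (-0.45) and Oas3 (-0.41). Among genes with at least 100 counts, both day 7 libraries lay above both of day 11 for 32 of 32 members, against 68.9% of all such genes. A member with few counts on day 11 could reach this minimum only through day 7, which fixed its order in advance. This count is therefore a description and carries no weight as a test. Without the second day 11 library 20 members passed.

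**Figure D4:**
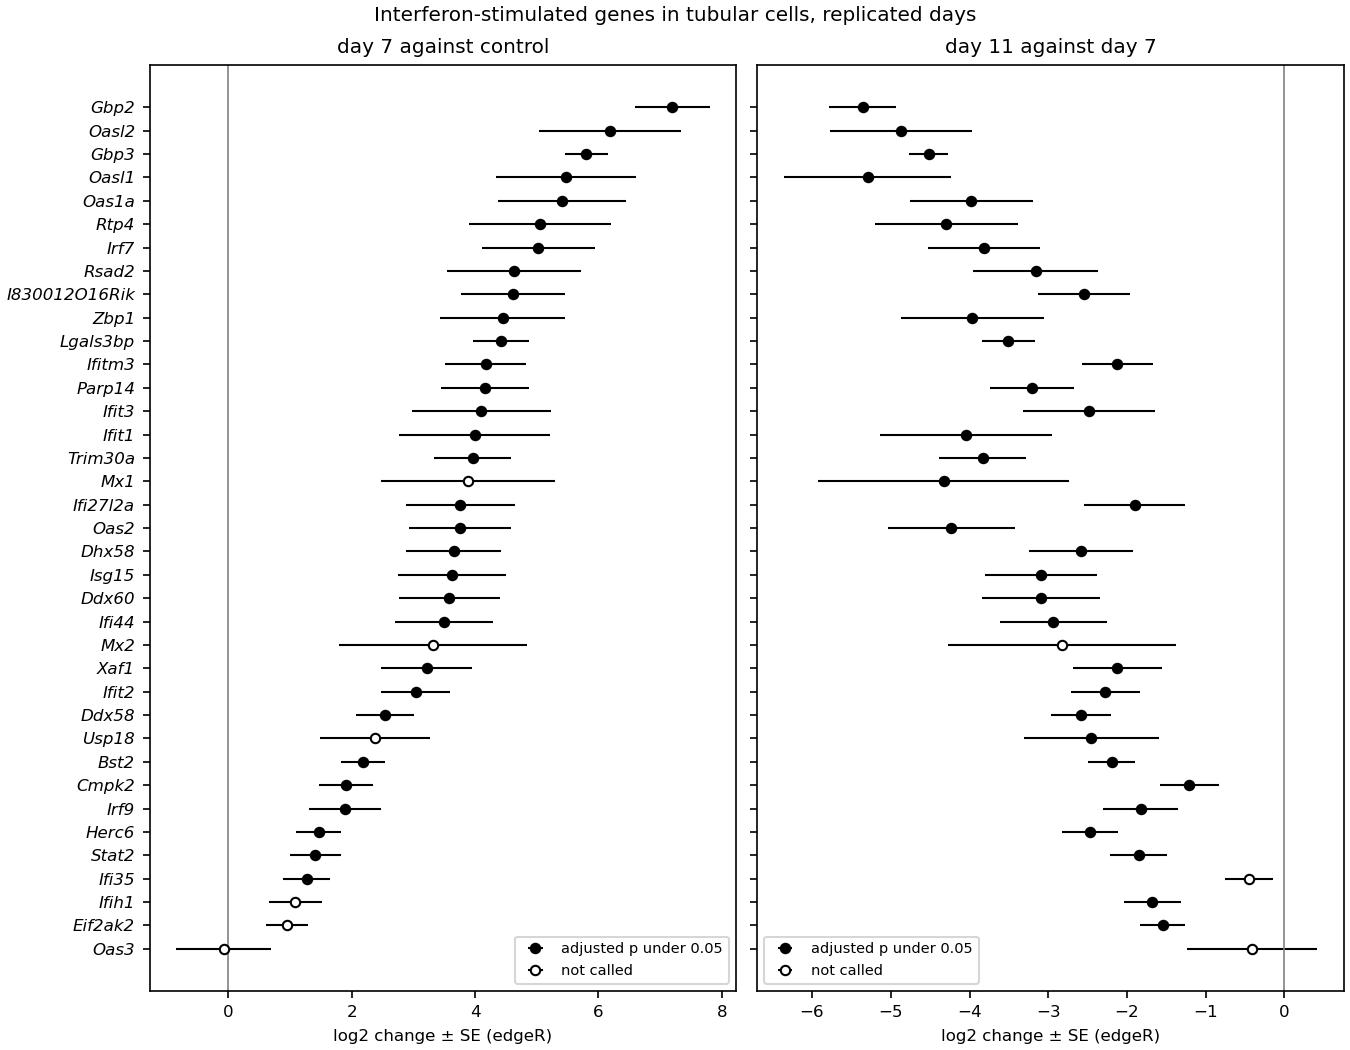
Log2 change with its standard error (edgeR) of the 37 genes in tubular cells, day 7 against the control (left) and day 11 against day 7 (right), sorted by the left panel; filled points passed the adjusted p threshold. On the left 31 points are filled and all but Oas3 lie right of 0; on the right 34 are filled and all 37 lie left of 0.

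RNA of other cells moved with the day in the tubular class as well. The summed level of 12 macrophage markers in tubular cells was 8.08 CPM in the control, 42.1 CPM on day 1, 56.3 CPM on day 2, 323 and 132 CPM in the day 7 pair, and 33.8 and 34.8 CPM in the day 11 pair, with 12 of 12 above 0, against 7743 to 19320 CPM in macrophage cells. The 14 endothelial markers summed to 29.9 to 124 CPM in tubular cells and to 9257 to 12910 CPM in endothelial cells. From the control to day 1 their tubular level went from 35.9 to 124 CPM, that of 10 stromal markers from 15.0 to 60.5 CPM and that of 8 neutrophil markers from 1.96 to 30.05 CPM. The stromal markers stood at 86.0 and 60.9 CPM in the day 7 pair and 29.3 and 22.9 CPM in the day 11 pair. T and NK markers stood at 13.1 CPM in the control, 36.1 and 27.6 CPM in the day 7 pair, and 8.38 and 13.3 CPM in the day 11 pair. Their part in the results of tubular cells was not tested.

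In endothelial cells 8 of 36 tested members fell from day 7 to day 11 and 0 rose, against 3.99% of genes that fell and 4.85% that rose. Among those that passed, the largest falls were in Zbp1 (log2 -3.92, SE 0.87; adjusted p = 0.00367 by edgeR), Ifit3 (-3.66; 0.00476), I830012O16Rik (-2.80; 0.0109) and Oasl2 (-1.997; 0.0122). Gbp3 (-1.54; adjusted p = 0.03 by edgeR) and Ifi44 (-1.38; 0.0162) also fell. Zbp1 in this class was at 51.6 and 50.6 CPM in the day 7 pair and at 4.29 and 0 CPM in the day 11 pair. DESeq2 called 0 of these members, and the edgeR count ran from 0 to 13 with 1 library left out. Both day 7 libraries exceeded both of day 11 for 15 of 20 members with at least 100 counts (38.0% of all such genes). Here too a member with few day 11 counts could reach the minimum only through day 7, so this count is a description. Macrophage markers in endothelial cells summed to 15.5 CPM in the control, 591 and 299 CPM in the day 7 pair, and 64.4 and 67.4 CPM in the day 11 pair. Their part in the endothelial results was not tested.

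In macrophage cells 0 of 37 members passed edgeR's test from day 7 to day 11 (6 at an unadjusted p under 0.05), where 1.31% of genes fell and 3.75% rose. Both day 7 libraries exceeded both of day 11 for 21 of 34 members with counts (49.3% of all such genes), a description under the same limit. The summed macrophage levels were 3546 and 5767 CPM in the day 7 pair and 3761 and 2332 CPM in the day 11 pair, so the days overlapped.

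Against the control, 0 of 36 endothelial members passed on day 7 by edgeR or DESeq2 (7 at an unadjusted p under 0.05 by edgeR, of which Ifih1 was lower, and 4 passing without either day 14 library), where 1.3% of genes rose and 1.87% fell. The endothelial and macrophage comparisons with the control were added after the data were seen. On day 11, 2 of 36 were lower than the control in endothelial cells, the RNA sensor Ifih1 (log2 -1.62, SE 0.40; adjusted p = 0.0201 by edgeR) and Herc6 (-2.01, SE 0.55; 0.0334), and 0 higher (1.29% of genes higher and 2.85% lower). The count was 0 by DESeq2 (which gave Herc6 no adjusted p) and without either day 11 library, 1 without the second day 7 library, and 4 without either day 14 library. In macrophage cells 0 of 37 passed on day 7 by edgeR or DESeq2 (3 at an unadjusted p under 0.05 by edgeR, and 1 passing without the first day 7 library; 1.15% of genes rose and 1.48% fell). On day 11 Ifitm3 was higher there (log2 2.21, SE 0.61; adjusted p = 0.0415 by edgeR), 1 of 37 where 2.05% of genes were higher and 1.33% lower, but not by DESeq2 or without either day 11 library.

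The day 7 change was compared between classes of the same libraries, in a fit chosen after the data were seen. It was larger in tubular than in endothelial cells for 30 of 36 members (9.65% of genes), with a median difference of 3.06 on the log2 scale. The widest gaps were those of Gbp2 (6.59, SE 0.49; adjusted p = 3.04e-09 by edgeR), Oasl1 (5.89, SE 1.13; 0.000792) and Gbp3 (5.72, SE 0.46; 8.49e-09). Against macrophage cells the change was larger in tubular cells for 7 of 37 members (5.03% of genes), with few macrophage cells in the control. The proximal tubule changed more than the thick ascending limb for 13 of 36 members (11.7% of genes). In these 3 fits 0 members passed in the opposite direction, for which the share of all genes was not counted. Ifit2 showed the clearest contrast between the segments: in the proximal tubule it was at 0.452 CPM in the control and at 126 and 95.9 CPM in the day 7 pair, and in the thick ascending limb at 11.2 CPM and at 14.2 and 13.1 CPM. That difference was 7.30 on the log2 scale (SE 0.48; adjusted p = 1.86e-08 by edgeR), and Rsad2 (6.20), I830012O16Rik (4.82), Ifit1 (4.68), Isg15 (4.25) and Bst2 (3.83) also passed. The summed level of the proximal tubule was the lowest of the segments in the control (67.3 CPM) and exceeded the thick ascending limb on day 7 (2240 and 1718 CPM against 948 and 836 CPM).

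The rest of the pathway was read from lists of other genes, drawn up with earlier results of these data known. Their counts are therefore a description and no support for the lists. Among all genes in tubular cells 16.4% rose and 17.9% fell on day 7, and 20.9% fell from day 7 to day 11. Ligands were nearly unseen: over all cells Ifnb1, a type I interferon, had 2 UMIs on day 4 and 0 in the other libraries. Ifng, the gene of interferon gamma, had 7 UMIs in the normal kidneys, 19 on day 1, 14 on day 2, 11 on day 4, 11 and 44 in the day 7 pair, 0 and 1 in the day 11 pair, and 5 and 2 in the day 14 pair. Of 10 ligand genes 0 had enough counts to be tested in tubular cells. The receptors rose on day 7 in 6 of 6 genes, led by Ifngr1 (log2 1.88, SE 0.26; adjusted p = 0.000289 by edgeR), and 4 fell again by day 11. Of 10 signalling and transcription genes 5 rose on day 7 and 0 fell, among them Irf8 (3.25), Irf1 (2.40) and Tyk2 (1.66). Of 9 sensing genes tested 3 rose, Tmem173 (STING, 4.77), Mb21d1 (cGAS, 3.74) and Ikbke (2.82); of 5 negative regulators 2 rose, Socs3 (2.67) and Socs1 (2.12). Of 44 other interferon-stimulated genes 37 rose on day 7 and 31 fell by day 11, with 0 in the opposite direction. Cxcl9 (9.12), Ms4a4c (6.69), Ifi47 (6.62) and Cxcl10 (5.62), chemokines among them, led the rise. Macrophage markers in tubular cells also went from 8.08 CPM in the control to 323 and 132 CPM in the day 7 pair. How much of the rise of these pathway genes is stray RNA was not tested.

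The 2 day 14 libraries differed in the 37 genes. The second had 3.40 times the summed tubular level of the first (95% counting interval 3.27 to 3.55). The members were listed with this difference known, so the values of day 14 are a description and carry no test. The first library stood at 1.34 times the control (1.27 to 1.41) and the second at 4.56 times. All 37 members were higher in the second, 30 of 30 with at least 100 counts in the pair, against 52.9% of genes. At least 2-fold higher were 24 of those 30, against 0.773% of 10862 genes. Some members reached the minimum only through the second library, as Mx2 did with 11 and 174 counts, so their direction was fixed in advance. The same limit holds for the other day 14 counts below.

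The members differed in size. Mx2 was 17.7-fold higher (9.62 to 36.0), with 11 and 174 counts, Ifit1 14.7-fold (10.7 to 20.7), Mx1 11.7-fold (4.25 to 44.98), Rtp4 10.4-fold (7.93 to 13.96) and Ifit3 10.04-fold (6.91 to 15.1). Oasl2 (9.59-fold), Oasl1 (8.37-fold), Oas1a (7.59-fold), Rsad2 (6.98-fold) and Isg15 (6.87-fold) came next. The smallest were Gbp3 (1.32-fold, 1.08 to 1.61), Gbp2 (1.72-fold, 0.762 to 4.07) and Ifi35 (1.77-fold, 1.49 to 2.11). The intervals of Gbp2 and of Oas3 (1.86-fold, 0.362 to 11.97) include equality. Zbp1, with 0 and 8 counts, was 2.98-fold higher when a floor of 3 counts was set for the first library. That value leaves out the counting error of the 8 and is no bound. Just inside the 2-fold line lay Herc6 (2.15-fold) and just outside it Lgals3bp and Bst2 (both 1.98-fold).

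**Figure D5:**
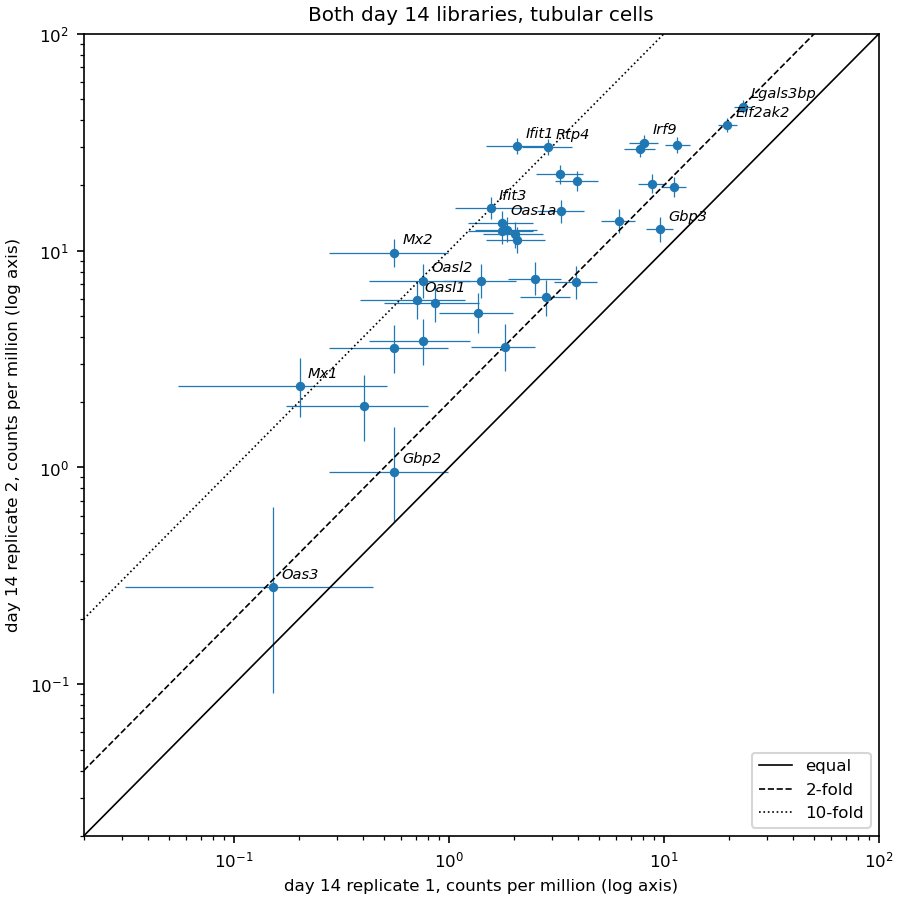
CPM of members in tubular cells in the first (x axis) and second (y axis) day 14 library, both on log axes, with exact 95% Poisson intervals; the lines mark equal, 2-fold and 10-fold levels. The points lie above the line of equality, with Mx2, Ifit1, Mx1, Rtp4 and Ifit3 at or above 10-fold and Gbp3 and Gbp2 nearest to equality.

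Ranked by this ratio among 10862 genes, 13 of the 20 highest and 21 of the 50 highest were members. The members were listed with this difference known, so their ranks are a description and no support for the list. The highest genes that are not members were Gm12962 (0 and 183 counts, at least 68.0-fold), Gfra1 (38.2-fold), Snhg3 (13.2-fold), Oas1g (7.55-fold), Cyp24a1 (6.14-fold), Cxcl10 (5.95-fold), Ifi27 (5.94-fold), Slfn2 (5.03-fold), Gys2 (4.52-fold) and Iigp1 (3.90-fold). Of these 10, Oas1g, Cxcl10, Ifi27, Slfn2 and Iigp1 are also known to respond to interferon. The lowest were Gm15883 (0.00547 times), BX465866.1 (0.0272), Fam213b (0.102), Gm129 (0.119) and Apobec2 (0.140).

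The summed level was higher in the second library in every class listed, by differing amounts. The summed ratio of the second to the first library was 2.85 in the proximal tubule (2.70 to 3.02), 5.27 in the thick ascending limb, 4.46 in collecting duct principal, 7.14 in intercalated (5.24 to 9.91), 3.12 in endothelial (2.93 to 3.32) and 2.79 in macrophage cells (2.45 to 3.19). It was smaller in the distal convoluted tubule, 1.65 (1.31 to 2.10; 188 and 161 cells), and in the other tubular class, 1.84 (1.55 to 2.18). In the proximal tubule 16 of 20 members with at least 100 counts were at least 2-fold higher (0.783% of genes), in endothelial cells 14 of 15 (3.09%), and in macrophage cells 1 of 2 (4.14%). By direction, 15 of 15 such members were higher in the second library in endothelial (43.8% of genes) and 2 of 2 in macrophage cells (44.4%). Among endothelial levels, Ifit1 was at 38.2 and 568 CPM and Ifitm3 at 1378 and 3750 CPM; among macrophage levels, Ifit2 was at 41.1 and 873 CPM, on 38 and 51 cells. In the thick ascending limb the share of thinned cells with at least 1 UMI of the 37 genes was 15.1% in the first and 47.4% in the second library, and in the proximal tubule 11.5% and 25.7%.

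Depth and the markers of other cells were close in the pair. The median UMI count of tubular cells was 2119 and 2100, and the summed markers of other cells in tubular cells were 29.9 and 37.8 CPM for endothelial, 10.3 and 11.3 CPM for macrophage and 12.1 and 12.8 CPM for T and NK markers. In tubular cells the second day 14 library was below day 2 for all 37 members, and the share of all genes in that order was not counted. The ratio of the second library's level to the day 2 level was 0.0105 for Rsad2 (the lowest), 0.0605 for the median member and 0.382 for Irf9 (the highest). In endothelial cells the median ratio was 0.2996 and the highest 0.970 (Irf9). In macrophage cells the median was 0.635, and 8 members were above their day 2 level, up to 2.24 times (Oas2). These macrophage ratios rest on 51 cells in the second day 14 library and carry no interval, so ratios near 1 show no difference. Among genes with at least 100 counts in the 5 libraries, the second library was above the control, both day 11 libraries and the first day 14 library for 29 of 31 members in tubular cells (17.6% of genes). The counts were 26 of 27 in endothelial (20.2%) and 2 of 2 in macrophage cells (16.4%).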

How the data were processed

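Drop-seq libraries of mouse kidney cortex were analysed from the gene-by-cell count tables deposited by the authors; the labels do not say whether these counts are UMIs, and they were read as such. The submitters' processing notes name mm10 and Bowtie2 2.2.7, with no parameters. The members and lists were chosen with earlier results of these data known. Barcodes were kept from 500 UMIs and 500 detected genes upward and up to a mitochondrial share of 50%, and the 5% of cells with the highest Scrublet score (scanpy 1.11.5) were removed, because the automatic threshold marked at most 0.111% (4.24 to 5.0% of kept cells per library were removed). A cell entered a class with at least 3 UMIs over at least 2 of its markers and at least 2 times those of every other class. Counts were summed per library and class and tested with edgeR 4.0.16 in R 4.3.3 (TMM scaling, filterByExpr, 1 term per group, quasi-likelihood F test, Benjamini-Hochberg adjustment over all genes). DESeq2 1.42.0 was an alternative. The script was tested on simulated data. Named members were the 8 with most counts, the 8 with the highest day 14 ratio and the 6 with the largest change per tested comparison. Background shares for days 1, 2 and 4 are over genes tested in tubular cells with at least 100 counts in the pair in tubular classes and at least 30 in others; for day 14 the minimum was 100. Promoters came from RefSeq. Some genes are not reported here by name. Of the 37 members, 11 overlap a gene on the other strand, where reads cannot be told apart unless counting used strand, which is not given in the sources used here. A further overlap, with a gene on the same strand, was found for 4 (Herc6, Irf9, Rtp4 and Parp14), and strand cannot separate those reads.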

Additional observations from a re-analysis of the deposited data

Results flagged for a closer look

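The day 7 change against the control differed between cell classes for many of the interferon-stimulated genes, by an edgeR test of the difference itself. It was larger in tubular than in endothelial cells for 30 of 36 members (9.65% of genes). It was larger in the proximal tubule than in the thick ascending limb for 13 of 36 (11.7%), and in tubular than in macrophage cells for 7 of 37 (5.03%). With 1 library left out in turn these counts ran from 28 to 31, from 13 to 15 and from 5 to 11. In the opposite direction 0 members passed, except that 1 did between the 2 segments without the first day 7 library. The share of all genes in that direction was not counted. The control is 1 library in each of these fits, and their cause was not tested.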

How the results depend on the processing

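The number of members that rose on day 7 in tubular cells (31) ran from 27 to 36 with 1 library left out, 27 without the first day 7 library, and kept within 1.5 times of its value under the other settings tried. For day 11 against the control (2), 10 passed with no filter on low counts, 11 with only the 2 groups compared, 1 at a mitochondrial limit of 25%, and 0 to 5 with 1 library left out. From day 7 to day 11 the tubular count (34) ran from 20, without the second day 11 library, to 35. The macrophage count (0) was 1 with no filter and 0 to 2 with a library left out (2 without the first day 7 library, 1 without the second); the endothelial count (8) was 0 by DESeq2 and 0 to 13 with a library left out. Against the control, the endothelial count was 3 with no filter and 1 with only the 2 groups on day 7 (0; 0 to 4 with a library left out), and on day 11 (2) it was 0 by DESeq2, 5 with only the 2 groups, 1 with doublets kept and 0 to 4 with a library left out. The macrophage count was 1 with no filter on day 7 (0; 0 to 1 with a library left out, 1 without the first day 7 library), and on day 11 (1) it was 0 by DESeq2, 2 with only the 2 groups and 0 to 1 with a library left out. Without the second day 7 library the count of members with a larger change in tubular than macrophage cells was 11. The day 14 ratio of 3.40 in tubular cells was 3.25 at the 25% limit and 3.15 without the 4 most counted members, and that of 2.85 in the proximal tubule was 2.64 without them. The share of all genes passing was not counted under the alternative settings, and the cause of these shifts was not tested.

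Libraries with the same replicate number did not deviate together over all genes (correlations 0.09, -0.04 and -0.06), and the numbers were not treated as pairing libraries. This check cannot exclude shared animals or batches. With the replicate number as a block the counts from day 7 to day 11 were 34 in tubular, 0 in macrophage and 9 in endothelial cells. Of 359 values for 23 named results, 312 kept direction and call, 47 lost the call and 0 reversed. These named results were picked for passing in the main fit and were refitted on mostly the same libraries, so a reversal was unlikely from the outset. Fits that gave a member no adjusted p were left out of the tally. With 1 library per early day, 2 per later day and few macrophage cells in the control, small differences may have been missed.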
